A study of Danio rerio with 24 samples.

Results

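Genes of the enzymes that couple small molecules to glucuronic acid, sulfate or glutathione were examined in livers of male zebrafish. They were taken as all genes of the Ensembl count table whose zebrafish symbol began with *ugt*, *sult* or *gst*, apart from *gsta.1*, and whose mean count over the 24 libraries reached 10. This gave 52 members of the 64 genes of these families in the table, among 11974 genes of 32105 that reached the same mean count. They comprised 25 of 28 UDP-glucuronosyltransferase (UGT) genes, 11 of 19 cytosolic sulfotransferase (SULT) genes and 16 of 17 glutathione S-transferase (GST) genes. The genes below the mean count were *gstk2*, *sult1st7*, *sult1st9*, *sult2st1*, *sult3st1*, *sult3st4*, *sult3st5*, *sult4a1*, *sult5a1*, *ugt1b2*, *ugt2b1* and *ugt5g2*.

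The study asked whether a parental diet high in arachidonic acid (ARA), an n-6 polyunsaturated fatty acid, leaves a mark on the liver of the offspring. Wildtype AB fish of the parental generation (F0) were put on a control or a high ARA diet at 27 days post fertilization (DPF), bred at 97 DPF and killed at 154 to 156 DPF. Their offspring (F1 control and F1 high ARA, named after the parental diet) received the control diet from 27 DPF, whatever the parental diet, and were killed at 140 to 142 DPF, so that the effects of generation and age cannot be told apart. Each of the 4 groups had 6 libraries, and each library was a pool of 6 male livers of one tank.

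Conjugation is the second phase in the clearance of drugs, hormones, bile pigments and lipid products, and the liver is its main site. UGT enzymes sit in the endoplasmic reticulum and transfer glucuronic acid from UDP-glucuronate. SULT enzymes are cytosolic and transfer sulfate from the donor PAPS to phenols and steroids. GST enzymes add glutathione to electrophiles, among them aldehydes that arise when polyunsaturated fatty acids are oxidized, and the conjugates leave the cell through ABC transporters.

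The total count per library lay between 5144880 and 15659321, and every F1 high ARA library had a larger total than every F1 control library. All 13 hepatocyte markers had counts in every group. Of 10 enterocyte markers listed, 6 were matched and none of them was at 0 throughout a group, and their summed level ranged from 7.37 to 738 CPM (counts scaled to the TMM-adjusted library size) in F0 control, 7.60 to 397 in F0 high ARA, 18.1 to 283 in F1 control and 39.5 to 49.2 in F1 high ARA. The mean log2 CPM of these 6 markers (the enterocyte score) was over 2 in 9 libraries, 3 each of F0 control, F0 high ARA and F1 control and 0 of F1 high ARA, and it left a gap between 1.68 and 2.78. Pancreas acinar markers were present in all libraries, with a summed level of 558 to 6687 CPM and the highest group median, 4245 CPM, in F1 control. These values are given again beside the members that moved with them.

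The members lay on 18 chromosomes of GRCz10, and 32 of the 52 stood within 100000 bases of another member. The largest groups were 5 *ugt5b* genes on chromosome 1 (8942166 to 8968614) and 5 *ugt1b* genes on chromosome 11 (30048398 to 30082831). Reads that fell on exons of several genes were left out by the counting, which matters for these families: in the *ugt1b* genes, whose models overlap, 30.8% to 48.0% of the exon bases overlapped another gene. The share was 23.2% to 47.5% in *ugt5b1* to *ugt5b4*, 55.7% in *ugt2a6* and 67.8% in *ugt5a2*. In *sult1st2* and *sult1st3*, which overlap on chromosome 8, it was 27.9% and 21.8%. In all, exons of 22 members overlapped another gene, and their values are therefore uncertain. Of these, 18 overlapped a gene of the same 3 families other than *gsta.1*, and *gsta.2* overlapped *gsta.1*. Reads were also counted without regard to strand.

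Levels per exon length of the gene model (TPM, from the gene lengths of the table) were highest in the GST class. The mean over 24 libraries was 937 TPM for *gstr*, the rho class GST known from fish, 891 TPM for the theta class gene *gstt1a*, 597 TPM for the pi class gene *gstp1.2* and 154 TPM for *gstz1*, which in mammals acts in tyrosine breakdown. Among UGT genes, *ugt5c2* had 222 TPM, *ugt1a1* 207 TPM, *ugt2a4* 58.3 TPM and *ugt5d1* 42.6 TPM. The lengths of the *ugt1a1* and *ugt2a4* models, 7134 and 4359 bases, cover exons of several RefSeq genes. Each of those genes shared only 1682 to 1964 bases with the first model and 2097 to 2131 with the second. The TPM of both models are therefore likely too low, and the order of *ugt5c2* and *ugt1a1* is uncertain. The *ugt5* genes belong to a UGT family known from fish. SULT genes were lower, with 109 TPM for *sult1st6*, 83.9 TPM each for *sult1st3* and the hydroxysteroid-type gene *sult2st2*, and 44.1 TPM for *sult1st4*. Few genes held most of each class: *gstr* and *gstt1a* together 72.6% of the summed CPM of GST members, *ugt1a1* alone 54.1% of the UGT sum, and *sult1st6* and *sult1st3* together 59.5% of the SULT sum.

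**Figure D1:**
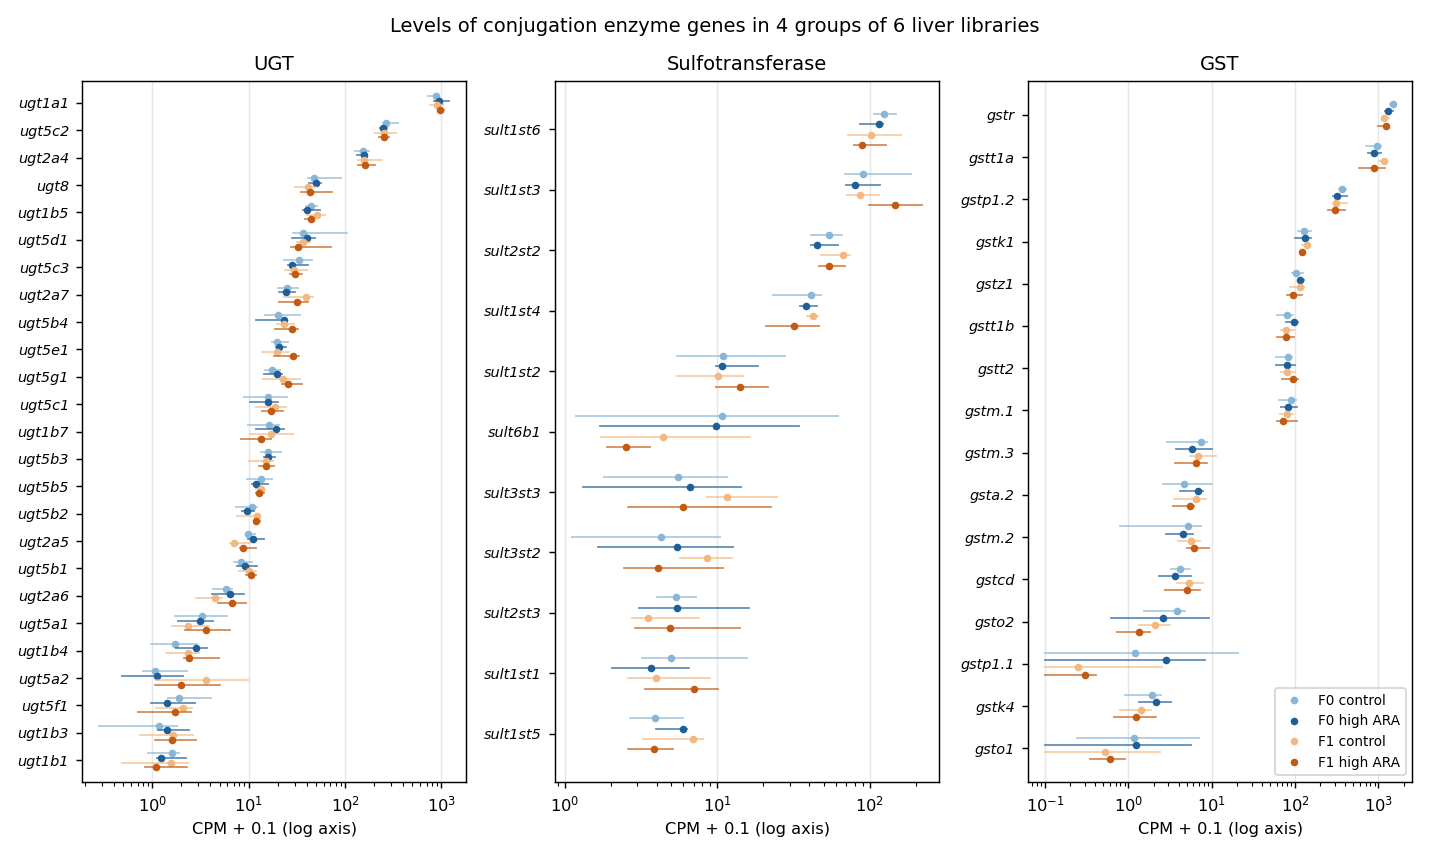
Level of each of the 52 members, in CPM + 0.1 on a log axis, for UGT (left), SULT (middle) and GST genes (right). Points are group medians and lines run from the lowest to the highest of 6 libraries. The highest group mean is less than 1.5 times the lowest in 34 of 52 members (65.4%), beside 67.8% of all genes at this mean count. *sult6b1*, *gstp1.1* and *gsto1* spread widely within groups.

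The *ugt1a1* value is a sum over several genes. Its single Ensembl model on chromosome 9 (9998614 to 10032338) covered exons of 7 genes of the RefSeq annotation. In vertebrate UGT1 loci, alternative first exons are joined to common last exons. In the RefSeq table these 7 genes together held 43.7% of the reads of the Ensembl model. The most abundant was *ugt1ab* with a mean count of 2614, followed by *ugt1a4* with 516 and *ugt1a5* with 144. *ugt1a2* had 55.2, *ugt1a1* itself 40.7, *ugt1a6* 2.46 and *ugt1a7* 0.17. The *ugt2a4* model similarly covered 4 RefSeq genes, led by *ugt2a1* with a mean count of 286 and *ugt2a3* with 209, while *ugt2a4* itself had 50.8. *ugt1ab* had 304 ± 34.2 CPM in F0 control, 359 ± 64.2 in F0 high ARA, 325 ± 44.1 in F1 control and 367 ± 13.2 in F1 high ARA (mean ± SD, n = 6 each, RefSeq counts). It was called in none of the comparisons of the RefSeq table.

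The summed CPM of each class was nearly the same in the 4 groups. UGT members summed to 1669 ± 56.6 CPM in F0 control, 1711 ± 131 in F0 high ARA, 1709 ± 183 in F1 control and 1780 ± 58.7 in F1 high ARA (mean ± SD, n = 6 each). The highest group mean was 1.07 times the lowest. SULT members summed to 380 ± 69.3, 338 ± 33.4, 358 ± 52.3 and 383 ± 47.4 CPM in the same order, a ratio of 1.13. GST members summed to 3281 ± 267, 3087 ± 263, 3174 ± 136 and 2880 ± 339 CPM, a ratio of 1.14, and the ranges of all 4 groups overlapped in each class. In summed TPM the means were 716, 708, 662 and 763 for UGT, in the same order of groups. They were 392, 358, 357 and 397 for SULT and 3142, 3034, 2845 and 2873 for GST members. The lowest group was thus F1 control in each class. The sums rest mostly on the few abundant genes named above, and no test was made of them.

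**Figure D2:**
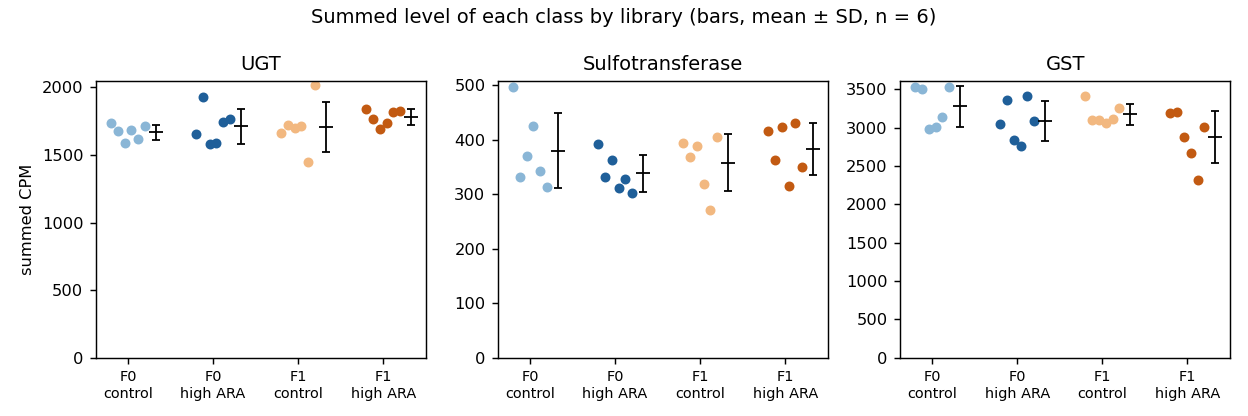
Summed CPM of the UGT, SULT and GST members in each library, by group. Points are libraries and bars the mean ± SD of 6. The class sums stay within 1.07, 1.13 and 1.14 times between the highest and the lowest group mean.

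Single members differed more than the sums, and most in the SULT class. The highest of the 4 group means was less than 1.5 times the lowest in 20 of 25 UGT members (80.0%) and 11 of 16 GST members (68.8%), beside 67.8% of all genes at this mean count. In the SULT class this held for 3 of 11 members (27.3%). The SD of log2 CPM within groups had a median of 0.31 in UGT, 0.32 in GST and 0.56 in SULT members, beside 0.31 over all these genes. It was largest in *gstp1.1* (1.85), *sult6b1* (1.55) and *gsto1* (1.48), and smallest in *gstr* (0.12) and *ugt1a1* (0.15). The largest in the UGT class was that of *ugt5a2* (0.78).

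The first comparison asked what the diet did in the fish that ate it. No member passed the test between F0 high ARA and F0 control (adjusted p under 0.05 over all genes tested, edgeR). A total of 51 members had a sufficient mean count in these 12 libraries, *ugt5a2* being the exception. None of all 12194 genes was called either (0%), while 21 were called with DESeq2 (0.172%), no member among them. At an unadjusted p under 0.05 there were 5 members (9.80%), beside 7.43% of all genes. The median log2 fold change was -0.06 in UGT, -0.09 in SULT and -0.04 in GST members, beside -0.02 over all genes tested.

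The members with the smallest p of their class in F0 were not called. *gstt1b*, a theta class gene, had a median of 80.7 CPM in F0 control (61.2 to 94.9) and 97.9 CPM in F0 high ARA (77.3 to 109), with a log2 fold change of 0.27 ± 0.12 (SE) and an adjusted p of 0.65. *sult1st5* had medians of 3.81 CPM (2.56 to 5.90) and 5.83 CPM (3.84 to 6.19), at 0.46 ± 0.20 and an adjusted p of 0.64. *ugt1b4* had medians of 1.60 CPM (0.854 to 2.80) and 2.76 CPM (1.67 to 3.58), at 0.64 ± 0.30 and an adjusted p of 0.67. The groups overlapped in all 3 genes. Of all members tested, *sult1st1* had the largest log2 fold change, -0.90 ± 0.40 (adjusted p = 0.65). Its mean was 7.07 CPM in F0 control and 3.83 CPM in F0 high ARA, also with overlap.

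The offspring comparison asked whether the parental diet was followed by a difference in fish that were all fed the control diet. Again no member passed the test between F1 high ARA and F1 control, of 49 with a sufficient mean count in these libraries (*gsto1*, *gstp1.1* and *ugt1b1* fell below). The calls over all genes were 226 of 11690 (1.93%). DESeq2 called 610 genes (5.22%), with 3 members among them: *sult1st3* (log2 fold change 0.79, adjusted p = 0.011), *sult1st5* (-0.78, 0.019) and *ugt2a6* (0.70, 0.035). At an unadjusted p under 0.05 there were 12 members (24.5%), beside 19.8% of all genes. They included 7 of 11 SULT genes, 3 of 14 GST genes and 2 of 24 UGT genes. The libraries of F1 high ARA were all deeper than those of F1 control, and the part of depth in these values was not tested.

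These 7 SULT genes did not move together. *sult1st1*, *sult1st2* and *sult1st3*, neighbours on chromosome 8, had positive log2 fold changes of 0.67, 0.59 and 0.78. *sult1st4*, *sult1st5*, *sult3st2* and *sult6b1* had negative ones of -0.41, -0.78, -0.84 and -1.42. None of the 7 passed the adjusted threshold, although *sult1st5* did without F1 control replicate 7 (-0.91, adjusted p = 0.026) and *sult3st2* without F1 high ARA replicate 13 (-1.21, 0.041). Without any 1 of the other 11 libraries the adjusted p was 0.066 to 0.14 for *sult1st5* and 0.19 to 0.36 for *sult3st2*. Enterocyte markers had a median log2 fold change of -2.13 between these groups (4 tested) and pancreas acinar markers one of -0.74 (10 tested). *sult6b1* was at 5.55, 12.7 and 16.4 CPM in F1 control replicates 7 to 9, which had an enterocyte score over 2, and at a median of 2.08 CPM in replicates 10 to 12. Without those 3 libraries its log2 fold change was 0.22 (adjusted p = 0.80), with the sign turned. The class medians were -0.24 for SULT, 0.06 for UGT and -0.10 for GST members, beside 0.00 over all genes tested.

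*sult1st3*, a phenol-type sulfotransferase and one of the most abundant of its class, had the smallest p of the SULT genes. Its level was 155, 138, 206, 108, 220 and 98.5 CPM in F1 high ARA replicates 13 to 18 and 81.3, 107, 116, 91.1, 70.4 and 71.5 CPM in F1 control replicates 7 to 12. Of the 6 high ARA libraries, 4 lay above all controls and the other 2 within their range. The log2 fold change was 0.78 ± 0.20 (edgeR adjusted p = 0.061, exact permutation p = 0.011, two-sided). Without F1 high ARA replicate 18 it passed (adjusted p = 0.032), as it did when scaled to library totals (0.049). Without any 1 of the other 11 libraries it did not, at adjusted p of 0.051 to 0.12. Over the 9 other settings its adjusted p ranged from 0.011 to 0.13. *ugt2a6* had a median of 6.65 CPM in F1 high ARA (4.72 to 9.16) and 4.40 CPM in F1 control (2.75 to 5.15), with 5 of 6 libraries above all controls, at 0.69 ± 0.19 and an adjusted p of 0.076. In the RefSeq counts its adjusted p was 0.17.

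The member of the GST class with the smallest p in F1 was *gstt1a*. Its median was 871 CPM in F1 high ARA (578 to 1184) and 1149 CPM in F1 control (1027 to 1194). A total of 5 high ARA libraries were below all controls, but the log2 fold change of -0.40 ± 0.14 did not pass the test (adjusted p = 0.14). *gstr* and *ugt1a1*, the most abundant GST and UGT by CPM, had log2 fold changes of 0.01 ± 0.09 and 0.11 ± 0.09.

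**Figure D3:**
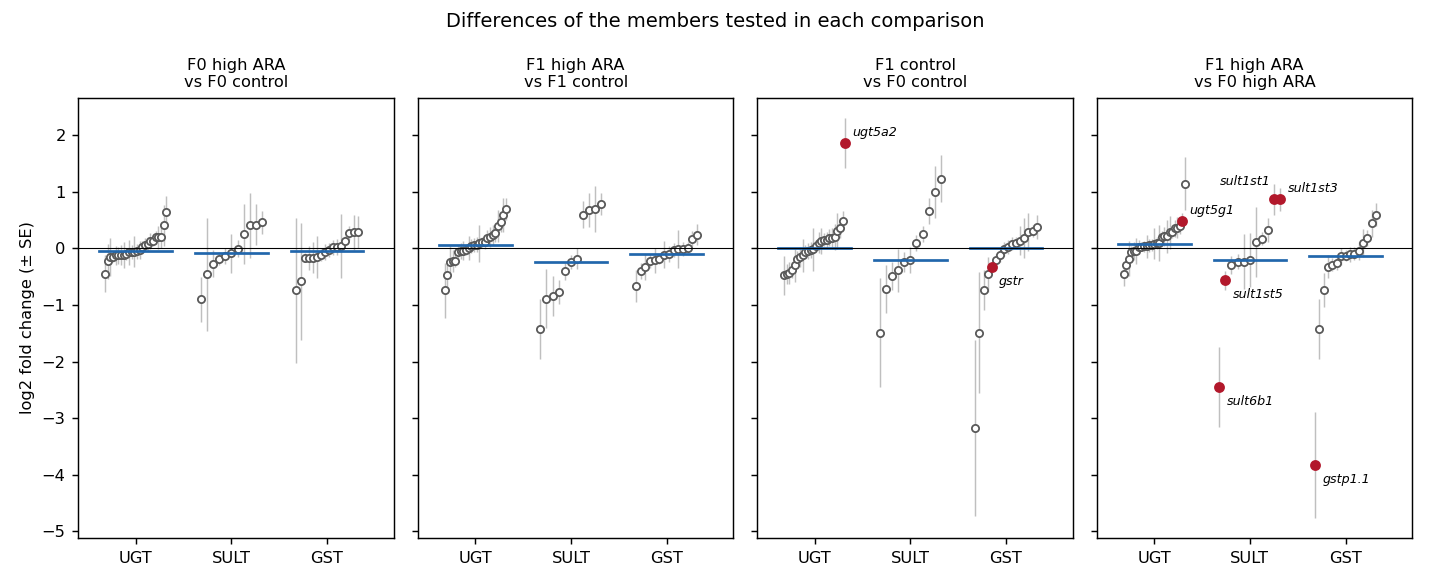
Log2 fold change ± SE of each member tested in the 4 comparisons, ordered by size within UGT, SULT and GST. Filled red points passed the test, open points did not, and blue lines are class medians. No member passed in either diet comparison, 2 passed between the control groups of the generations and 6 between the high ARA groups.

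Between the generations on the control diet, 2 of 51 members passed the test, *gstr* and *ugt5a2* (3.92%). The second of them reached the mean count of 10 only through F1 control (24.5, against 9.67 in F0 control), so that the count of 2 supports nothing about the members. Over all genes 275 of 11729 were called (2.34%), of which 89 were higher (0.759%) and 186 lower (1.59%) in F1. DESeq2 called the same 2 members and *sult3st3*, beside 5.23% of all genes. At an unadjusted p under 0.05 there were 9 members (17.6%), beside 18.1% of all genes. Class medians of the log2 fold change were 0.01 in UGT, -0.20 in SULT and 0.00 in GST members, beside -0.01 over all genes tested. Pancreas acinar markers had a median sum of 1955 CPM in F0 control and 4245 CPM in F1 control, and their part in these calls was not tested.

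*gstr*, on chromosome 19 (770491 to 776267), was the most abundant member and lower in the offspring. It was at 1576, 1514, 1424, 1475, 1369 and 1576 CPM in F0 control replicates 7 to 12 and at 1353, 1133, 1124, 1164, 1140 and 1282 CPM in F1 control replicates 7 to 12. The groups did not overlap, although the highest F1 library nearly reached the lowest F0 library. The difference was -0.32 ± 0.08 on the log2 scale (adjusted p = 0.045, exact permutation p = 0.0022, two-sided, the smallest that 6 against 6 libraries allow). It remained called when F1 control replicate 7 or 12 was left out, and without any 1 of the other 10 libraries the adjusted p was 0.056 to 0.10, with log2 fold changes of -0.35 to -0.30 over the 12 fits. The call was also lost in the RefSeq counts (-0.30, adjusted p = 0.059), with no filter on low counts (0.10), with the enterocyte score as a covariate (0.057) and without the 6 libraries of these groups with an enterocyte score over 2 (-0.36, 0.48). In that last fit none of all 11716 genes was called, so no call could be kept there. *gstr* was at 1199 to 1473 CPM in F0 high ARA (median 1305) and 974 to 1353 in F1 high ARA (median 1244).

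*ugt5a2*, a UGT of the *ugt5* family on chromosome 25 (28950525 to 28972362), was higher in F1 control. Its level was 1.26, 1.00, 0.854, 0.906, 0.700 and 2.16 CPM in F0 control replicates 7 to 12 and 0.991, 2.40, 9.62, 4.76, 3.65 and 3.27 CPM in F1 control replicates 7 to 12. A total of 5 F1 libraries lay above all F0 libraries, and replicate 9 was far above the rest. On the log2 scale the difference was 1.86 ± 0.44 (adjusted p = 0.040, exact permutation p = 0.011). With 67.8% of its exon bases shared, few reads were counted, between 5 and 51 per library. As the mean count was reached only through the group where the gene is high, the fit is given as a description. With no filter on low counts the adjusted p was 0.047. It remained called without F0 control replicate 12 or F1 control replicate 7. Without any 1 of the other 10 libraries the adjusted p was 0.050 to 0.089. In the RefSeq table, where the gene had a mean count of 93.7 in place of 16.9, the log2 fold change was 0.86 with an adjusted p of 0.16, and without the 6 libraries with an enterocyte score over 2 it was 1.60 with an adjusted p of 0.23. None of all 11716 genes was called in that last fit. Between the high ARA groups the mean of *ugt5a2* was 1.15 CPM in F0 and 2.48 CPM in F1. There it was called only in the RefSeq counts and with the enterocyte score as a covariate.

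Among the SULT genes *sult3st3* had the smallest p between the control groups. Its median was 5.46 CPM in F0 control (1.70 to 11.4) and 11.5 CPM in F1 control (8.49 to 24.4), with overlap, at a log2 fold change of 1.23 ± 0.41 (adjusted p = 0.14). *gstt1a* had 912 ± 152 CPM in F0 control and 1132 ± 57.2 in F1 control (mean ± SD, n = 6 each), with 5 of 6 F1 libraries above all F0 libraries and an adjusted p of 0.16.

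The high ARA groups of the generations differed in 6 of 51 members tested (11.8%), beside 2058 of 12150 genes (16.9%). In this comparison the F0 fish ate the high ARA diet and the F1 fish the control diet. Generation, age and the diet eaten therefore cannot be told apart here. Of the 6, *gstp1.1* reached the mean count only through F0 high ARA (20.2, against 2 in F1 high ARA). *sult1st1*, *sult1st3* and *ugt5g1* were higher in F1 high ARA, and *sult1st5*, *sult6b1* and *gstp1.1* were lower. Over all genes 1021 were higher (8.4%) and 1037 lower (8.53%). By class the calls were 4 of 11 SULT, 1 of 25 UGT and 1 of 15 GST members. DESeq2 called the same 6 and *gstm.2* and *gsto2*, beside 20.3% of all genes. At an unadjusted p under 0.05 there were 17 members (33.3%), beside 32.9% of all genes. The class medians were 0.08 for UGT, -0.20 for SULT and -0.13 for GST members, beside 0.00 over all genes tested. This comparison shares the F1 high ARA libraries with the offspring comparison, so the values of both are not independent.

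*sult1st3* (chromosome 8, 46505998 to 46573569) was at 88.3, 88.0, 117, 69.9, 73.0 and 71.6 CPM in F0 high ARA replicates 13 to 18, against 98.5 to 220 CPM in F1 high ARA. Again 4 of the F1 libraries lay above all F0 libraries. The log2 fold change was 0.86 ± 0.21 (adjusted p = 0.014, exact permutation p = 0.0065). The call was kept in all 12 fits that left out 1 library, with adjusted p between 0.0062 and 0.032, and in the RefSeq counts. Without the 3 F0 high ARA libraries with an enterocyte score over 2 it was 0.99 with an adjusted p of 0.056.

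*sult1st1* (chromosome 8, 46438659 to 46501315), its neighbour, had the same log2 fold change at a much lower level. It was at 3.69, 6.42, 4.48, 1.96, 2.93 and 3.48 CPM in F0 high ARA and at 8.23, 7.18, 6.73, 6.20, 10.1 and 3.28 CPM in F1 high ARA, replicates 13 to 18. Here too 4 F1 libraries lay above all F0 libraries, and the other 2 lay within their range. The fit gave 0.86 ± 0.28 (adjusted p = 0.046, exact permutation p = 0.030). It was still called without F0 high ARA replicate 14 or F1 high ARA replicate 18, and without any 1 of the other 10 libraries the adjusted p was 0.057 to 0.11. Without the 3 libraries with a high enterocyte score the log2 fold change was 0.74 with an adjusted p of 0.24, and the call was lost with the enterocyte covariate (0.11) or all 24 libraries in one fit (0.099).

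*sult1st5* (chromosome 23, 24562536 to 24567270) differed in the other direction. It was at 3.84, 5.73, 5.48, 6.19, 5.95 and 5.93 CPM in F0 high ARA and 4.23, 4.99, 3.32, 3.46, 2.52 and 4.04 CPM in F1 high ARA. Except for F0 replicate 13, every F0 library lay above every F1 library. On the log2 scale it differed by -0.57 ± 0.17 (adjusted p = 0.039, exact permutation p = 0.011). It was still called without F0 high ARA replicate 13 or F1 high ARA replicate 13, 14 or 18, and without any 1 of the other 8 libraries the adjusted p was 0.060 to 0.075. In the RefSeq counts it was 0.051, with no filter 0.083, with all 24 libraries in one fit 0.054, and without the 3 libraries with a high enterocyte score 0.087.

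*ugt5g1* (chromosome 7, 22420804 to 22425829) was the member of the UGT class that passed. Its median was 19.3 CPM in F0 high ARA (14.3 to 21.8) and 25.2 CPM in F1 high ARA (21.8 to 35.5). The groups did not overlap, by a narrow margin. The log2 fold change was 0.49 ± 0.13 (adjusted p = 0.022, exact permutation p = 0.0022). The call was kept without any 1 library, at adjusted p between 0.018 and 0.048, and in the RefSeq counts (0.021), and the adjusted p was 0.071 with the enterocyte covariate and 0.13 without the 3 libraries with a high enterocyte score. Between the control groups the log2 fold change was 0.36 ± 0.17 with an adjusted p of 0.29.

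**Figure D4:**
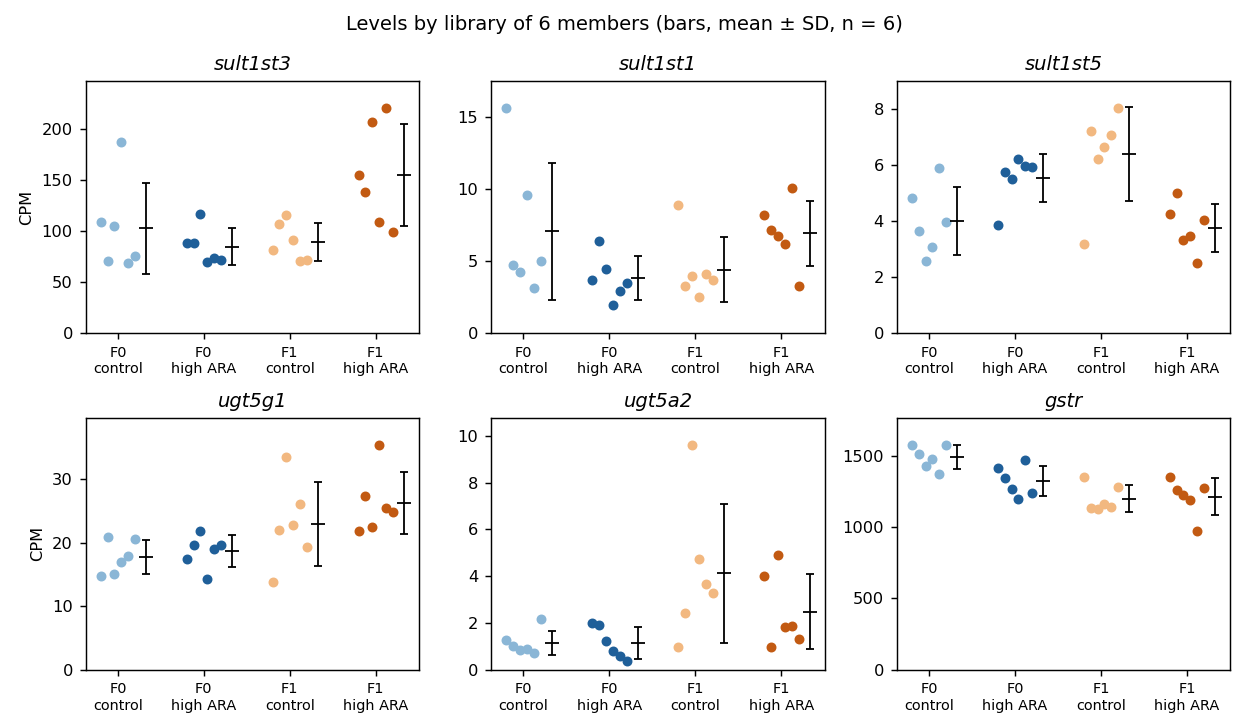
CPM by library of *sult1st3*, *sult1st1*, *sult1st5*, *ugt5g1*, *ugt5a2* and *gstr* in the 4 groups, with bars for the mean ± SD of 6. *sult1st3* reaches 154 ± 50.1 CPM in F1 high ARA, beside 84.6 to 102 in the other groups, while *sult1st5* is highest in F1 control and *gstr* in F0 control.

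In the RefSeq counts 9 members were called between the high ARA groups, where 2160 of 12436 genes were called (17.4%). They were *sult1st1*, *sult1st3*, *sult6b1*, *gstp1.1* and *ugt5g1* with the same sign, and *ugt1a1*, *ugt5a2* (0.98, adjusted p = 0.029), *ugt5b1* (0.34, 0.031) and *ugt5e1* (0.46, 0.036). In those with the same sign, the mean RefSeq count was 91.1% to 101% of the Ensembl count in the same libraries. Their same sign is therefore no separate support. Of these, *gstp1.1* reached the mean count only through F0 high ARA in the Ensembl counts. For *ugt1a1* the RefSeq gene is only a small part of the Ensembl model. It was at 5.00 to 14.4 CPM in F0 high ARA (median 7.88) and 1.71 to 3.33 in F1 high ARA (median 2.75), and the groups did not overlap. The log2 fold change was -1.63 ± 0.26 (adjusted p = 0.0012), against 0.03 ± 0.10 (adjusted p = 0.84) for the pooled Ensembl model. Between the control groups the RefSeq gene was at -1.11 ± 0.41 (adjusted p = 0.17). The part of the enterocyte score was not tested for this gene. Its neighbour *ugt1a2* was at 7.50 to 10.1 and 5.68 to 8.41 CPM, at -0.38 ± 0.12 and an adjusted p of 0.047. In *ugt1a4*, which is more abundant than both, the log2 fold change was 0.41 ± 0.14 and missed the threshold (adjusted p = 0.059). The pooled count of the locus did not show these differences.

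Whether the diet difference itself differed between the generations was tested by the interaction of diet and generation on all 24 libraries. No member passed, with 13 of 11974 genes called (0.109%). DESeq2 called 118 (0.985%), with *sult1st5* among them. At an unadjusted p under 0.05 there were 4 members (7.69%), beside 12.9% of all genes. The nearest to the threshold was *sult1st5*, at an interaction of -1.23 ± 0.29 (edgeR adjusted p = 0.082, DESeq2 0.012), and it passed in edgeR without F1 control replicate 7 (0.024). Without any 1 of the other 23 libraries *sult1st5* did not pass, at adjusted p of 0.057 to 0.16. Its mean was 3.99 ± 1.21 CPM in F0 control, 5.52 ± 0.857 in F0 high ARA, 6.39 ± 1.69 in F1 control and 3.76 ± 0.854 in F1 high ARA, so that the diet difference pointed up in F0 and down in F1.

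The values of *sult1st1* and *sult1st3* pointed the opposite way, at interactions of 1.58 ± 0.53 (adjusted p = 0.23) and 1.06 ± 0.33 (adjusted p = 0.20). *gstz1* was at -0.35 ± 0.15 (adjusted p = 0.33) and *ugt1b7*, the UGT with the smallest p, at -0.66 ± 0.33 (adjusted p = 0.40). The class medians of the interaction were 0.09 for UGT, -0.09 for SULT and -0.22 for GST members, beside 0.01 over all genes.

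*sult6b1* and *gstp1.1*, which gave the largest fold changes between the high ARA groups, followed the enterocyte score. *sult6b1* was at 34.1, 9.03, 10.3, 27.1, 1.59 and 1.93 CPM in F0 high ARA replicates 13 to 18 and at 1.80 to 3.55 CPM (median 2.42) in F1 high ARA. The F1 libraries fell within the F0 range, so the groups overlapped. In the fit it differed by -2.45 ± 0.70 on the log2 scale (adjusted p = 0.036, exact permutation p = 0.056). It was -0.63 with the enterocyte score as a covariate (adjusted p = 0.17) and -0.64 without the 3 F0 high ARA libraries of high score (0.48). The call was also lost with no filter (0.082) or all 24 libraries in one fit (0.060). It was kept without F0 high ARA replicate 14, 17 or 18, and without any 1 of the other 9 libraries the adjusted p was 0.052 to 0.077. In bulk tissue, fewer cells of a type and less RNA per cell cannot be told apart.

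*gstp1.1*, on chromosome 14 (3388236 to 3396402), was at 8.29, 2.60, 2.91, 3.75, 0.252 and 0 CPM in F0 high ARA replicates 13 to 18 and at 0 to 0.305 CPM (median 0.204) in F1 high ARA. It had enough counts for the test only through the F0 libraries, since the F1 high ARA libraries held 0 to 4 counts each, 12 in all. A gene that passes the filter in this way had to differ, and its fit is given as a description. The fitted value was -3.82 ± 0.94 on the log2 scale (adjusted p = 0.018, exact permutation p = 0.045), and -1.62 with the enterocyte score as a covariate (adjusted p = 0.10). With all 24 libraries in one fit the adjusted p was 0.061, and with no filter on low counts 0.047. It could not be tested without the libraries of high score, because too few counts remained, nor without F0 high ARA replicate 13 or 15. In the other 10 fits without 1 library the adjusted p was at most 0.040.

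Over the 24 libraries the deviations from the group mean of *sult6b1*, *gsto1* and *gstp1.1* had correlations of 0.95, 0.91 and 0.87 with those of the enterocyte score (a description over n = 24 libraries that share their depth). The score was over 2 in 9 libraries, where *sult6b1* was at 5.55 to 62.0 CPM (median 17.3), and in the other 15 it was at 1.08 to 9.03 (median 2.29). *gsto1*, an omega class GST, was at 0.397 to 6.90 CPM (median 2.26) in the 9 and at 0 to 0.804 (median 0.270) in the 15. *gstp1.1* was at 0 to 20.8 CPM (median 2.91) in the 9 and at 0 to 2.60 (median 0.101) in the 15. F1 control replicate 7, where *gstp1.1* had no count, was the exception among the 9. Within-group correlations over 0.6 were found for 7 of the 52 members (13.5%), beside 3.62% of all genes, the others being *sult1st2* (0.67), *gsto2* (0.63), *ugt5c3* (0.63) and *ugt1b3* (0.61).

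*gstp1.2*, the neighbour of *gstp1.1* at a distance of 3617 bases, had another pattern. It was at 288 to 415 CPM in the 9 libraries and 250 to 413 CPM in the 15, and its correlation with the score was 0.10. Its group means lay between 315 and 368 CPM. Both genes encode pi class enzymes, and the deviations of one had a correlation of 0.14 with those of the other. Among the 15 libraries of low score, *sult6b1* had a median of 2.37 CPM in F0 control (n = 3), 1.93 in F0 high ARA (n = 3), 2.08 in F1 control (n = 3) and 2.42 in F1 high ARA (n = 6).

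**Figure D5:**
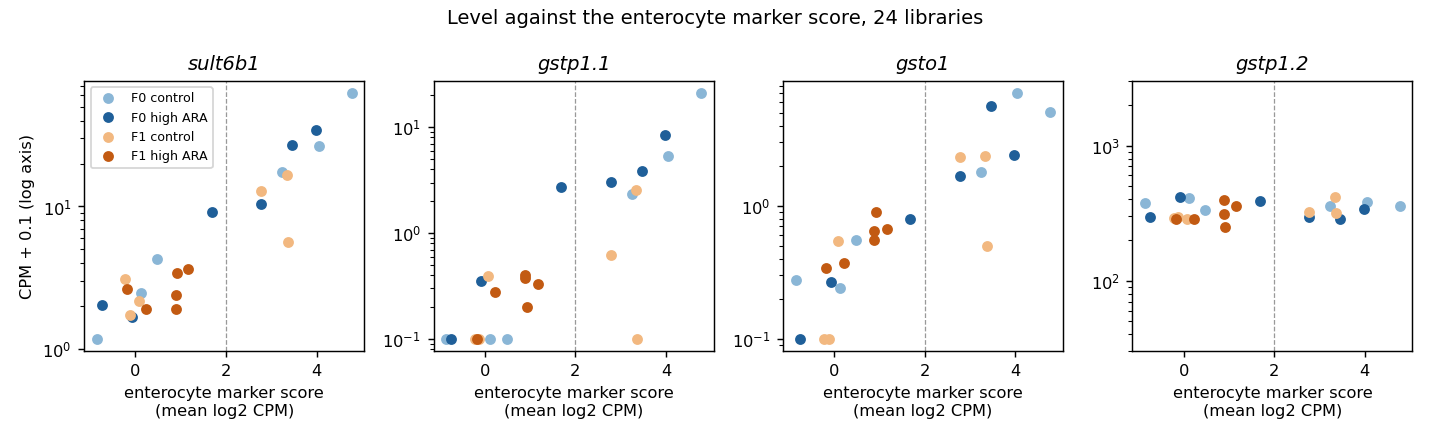
CPM + 0.1 (log axis) of *sult6b1*, *gstp1.1*, *gsto1* and *gstp1.2* against the enterocyte score in 24 libraries, coloured by group, with a dashed line at a score of 2. The first 3 genes climb with the score, whereas *gstp1.2* stays between 250 and 415 CPM. No F1 high ARA library has a score over 2.

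Other members also deviated together within groups, as described here without a test over n = 24 libraries. The neighbours *sult3st2* and *sult3st3* on chromosome 22, which are 18471 bases apart, had a correlation of 0.81, *ugt5b2* and *ugt5b3* one of 0.72 and *gsto1* and *gsto2* one of 0.71. Some other neighbours had lower correlations, such as 0.51 for *sult1st1* and *sult1st3*, 0.26 for *sult1st1* and *sult1st2* and -0.21 for *gstm.2* and *gstm.3*. *ugt5d1* and *ugt8*, which lie on different chromosomes, had a correlation of 0.72, and *sult1st4* and *ugt5d1* one of -0.69. Both of these relations involve 2 libraries in particular. F0 control replicate 10 and F1 high ARA replicate 17 had the highest *ugt5d1* of their groups (105 and 71.0 CPM), the highest *ugt8* (91.5 and 73.0 CPM) and *sult1st3* (187 and 220 CPM), and the lowest *sult1st4* (23.0 and 20.9 CPM). *ugt8* in mammals adds galactose to ceramide and is a UGT by sequence.

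Genes that supply the co-substrates, export the conjugates or control these enzymes were counted from lists. None was called by edgeR in the 2 diet comparisons, and DESeq2 calls were not counted for these lists. The study, which used DESeq2, reported *rxraa* of the receptor list as lower in F1 high ARA. Its F1 pathway results also held AHR and ABCC6, given as human symbols, beside the sulfotransferases named with the offspring comparison. Between the control groups *abcb4*, an ABC transporter of the liver, was lower in F1 (-0.80 ± 0.18, adjusted p = 0.032), 1 of 8 export genes tested, beside 2.34% of all genes. It was called with the enterocyte score as a covariate. Without the libraries with a score over 2 its log2 fold change was -0.76, and none of all 11716 genes was called there. Between the high ARA groups, which also differed in the diet eaten, more passed. Of 4 genes of UDP-glucuronate supply and removal, *ugdh*, which makes UDP-glucuronate, was lower in F1 high ARA (-0.68 ± 0.13, adjusted p = 0.0043). Of 5 genes of PAPS supply and sulfate removal, *slc35b3*, which carries PAPS into the Golgi, and *bpnt1*, which breaks down the spent donor, were higher (0.46 ± 0.13 and 0.39 ± 0.13).

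In the glutathione list of 5 genes, *gsr*, which regenerates glutathione, was lower (-0.81 ± 0.19, adjusted p = 0.012) and *ggt5a* higher (1.73 ± 0.46, adjusted p = 0.025). Of 8 export genes, *abcc2*, *abcc3* and *abcb4* were lower (-0.40, -0.60 and -0.68) and *abcc5* and *abcg2c* higher (0.84 and 0.85). Of 9 receptor genes, *nr1i2*, the pregnane X receptor that controls many conjugation genes in mammals, was lower (-0.72 ± 0.14, adjusted p = 0.0045), as was *arnt*, the partner of the aryl hydrocarbon receptor (-0.55 ± 0.15, adjusted p = 0.024). None of the 2 tested genes of the Ahr list and 1 of the 8 of the Nrf2 list, again *abcc2*, was called. These calls stand beside the 16.9% of all genes called in this comparison. Enterocyte markers were lower in F1 high ARA, at a median log2 fold change of -2.62 (4 tested, 2 called lower), while the listed genes went both ways. With the enterocyte score as a covariate 8 of these 12 genes were called, and the calls of *slc35b3*, *bpnt1*, *ggt5a* and *abcc3* were lost. Without the 3 libraries with a score over 2 only *ugdh* and *abcg2c* of the 12 were called. All 12 kept their sign in both settings. The 12 were picked as called in the main fit, so these counts cannot be set beside the share of all genes. Over all genes the calls fell from 2058 of 12150 to 1197 of 12150 and 561 of 12141 in these settings. How many of the 2058 stayed called was not counted.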

How the data were processed

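Male zebrafish livers were profiled by RNA-seq in 24 libraries. The authors mapped single-end reads with HISAT2 to GRCz10 and deposited raw counts per gene from featureCounts 1.5.0-p3, for Ensembl 85 and RefSeq. According to the file headers, reads were counted without strand, and reads with several matches were dropped. Of the 36 count columns in each table, 12 were not used, as they are not of these samples. Groups were taken from the labels of the submitters.

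Symbols came from a table of gene names. For 7 members with human-style symbols the zebrafish name came from the RefSeq gene with most shared exon bases, and 51 of the 52 members had such a partner. Members and lists were chosen with earlier results of these data known. Models were fitted to the 12 libraries compared, and to all 24 for the interaction, with edgeR 4.0.16 (quasi-likelihood F test, robust, TMM factors) in R 4.3.3, for genes whose mean count reached 10. Genes with a Benjamini-Hochberg adjusted p under 0.05, over all genes tested, were called. The SE of a log2 fold change was its size divided by the square root of F. CPM use TMM factors, and log2 CPM a prior count of 2. Exact permutation tests ran over 924 assignments of log2(CPM + 0.5) and were two-sided. P-values measure the spread between tanks. In simulated counts for the F1 comparison (11690 genes), 77 of 97 genes with a true log2 change of 1 and 91 of 94 with 2 were recovered, with 10 unchanged genes called. Changes smaller than 1 were not simulated, so their recovery is not known. The changed genes were drawn at random from all genes, and a varying enterocyte content was not simulated. SULT members had a wider spread (median SD 0.56, beside 0.31 over all genes). The recovery for members is therefore not known either.

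Named genes were all members called in a comparison, the member with the smallest p of a class without a call, and in each class the 4 highest per length and the one with the largest SD within groups. Others, such as *gsto1*, *ugt8* and the RefSeq genes, were named after their values were seen. Alternatives were DESeq2 1.42.0, RLE factors, library totals, other count minimums, RefSeq counts, the enterocyte score as covariate, all 24 libraries in one fit, leaving out each library, and a block for the replicate number. The fit without the libraries with an enterocyte score over 2, and both enterocyte fits of the listed genes, were chosen after seeing the data. No protein or promoter sequence was used here.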

Additional observations from a re-analysis of the deposited data

Results flagged for a closer look

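In 104 groups of 6 libraries (23 named members and 3 class sums, in 4 groups each) the highest or lowest library was compared with the rest by the gap to its nearest neighbour over the whole range, on log2(CPM + 0.5). In 8 of them the gap exceeded the 95% critical value of Dixon's test, and chance gives about 1 in 20. F0 control replicate 10 had 3 of these: *ugt5d1* at 105 CPM beside 37.9 in the next library, *ugt5c2* at 353 CPM beside 269, and *sult1st4* at 23.0 CPM beside 36.8. F1 control replicate 7 had 2: *sult1st1* at 8.92 CPM beside 4.08, and *sult1st5* at 3.17 CPM beside 6.23. In F1 high ARA replicate 17 *ugt5d1* was at 71.0 CPM beside 35.6. In F0 high ARA replicate 13 *sult1st5* was at 3.84 CPM beside 5.48, and in F1 control replicate 9 *gstp1.2* was at 415 CPM beside 320. Of the genes called in a comparison, *sult1st5* and *sult1st1* are among these.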

How the results depend on the processing

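The count of members called changed under some settings. Between the high ARA groups it was 6, and 3 with a mean count of at least 50, with the enterocyte score as a covariate or with all 24 libraries in one fit, and 0 without the libraries with an enterocyte score over 2. Over all genes the calls were 2058 of 12150 in the main fit. In these settings they were 1521 of 7464, 1197 of 12150, 2350 of 12150 and 561 of 12141, in the same order. The count was 4 with no filter on low counts, beside 1718 of 23898 genes. At a mean count of at least 50 the 3 were *sult1st3*, *sult6b1* and *ugt5g1*. With the enterocyte covariate they were *sult1st3*, *sult1st5* and *ugt5a2* (1.75, adjusted p = 0.032), the last not among the 6. With all 24 libraries in one fit they were *sult1st3*, *ugt5g1* and *gsto2*, the last again not among the 6. Between the control groups the count of members called was 2. It was 1 with no filter on low counts, a mean count of at least 50 or the enterocyte covariate. It was 0 in the RefSeq counts or without the libraries of high score. Over all genes the calls were 275 of 11729 in the main fit. In these settings they were 267 of 23851, 215 of 6798, 294 of 11729, 241 of 11993 and 0 of 11716, in the same order. In the F1 diet comparison it was 0, and 3 with DESeq2, 1 with library totals and 1 with all libraries in one fit. Of all 11690 genes, 226 were called in the main fit and 610, 236 and 359 in these settings. For the interaction it was 0, and 1 with DESeq2, which called 118 of all 11974 genes. In the F0 diet comparison it was 0 in all 9 other settings and 12 fits without 1 library. Leaving out 1 library gave 0 to 1 in the F1 diet comparison, 0 to 2 between the control groups, 2 to 7 between the high ARA groups and 0 to 1 for the interaction. Over all genes these fits called 80 to 289, 111 to 283, 1404 to 1883 and 2 to 19 genes, in the same order. With the replicate number as a block, 0 members were called between the control groups and 2 between the high ARA groups (*gstp1.1* and *sult1st3*). Of these, *gstp1.1* reached the mean count only through F0 high ARA. Over all genes the block left 175 of 11729 and 1549 of 12150 called. Same-numbered libraries had correlations of -0.36 to 0.27, and 1 of 12 was most like its own number. Whether the same number marks related tanks is not given, and low correlations between pooled livers cannot settle it. Signs turned in these log2 fold changes of single members, none of them called there in the Ensembl fit. *ugt1a1* was at -0.32 in the F1 diet comparison and -1.63 between the high ARA groups in the RefSeq counts, where its model is another, and between the high ARA groups at -0.00308 with the enterocyte covariate, -0.11 without the libraries of high score and -0.0062 to 0.11 without 1 library. *sult6b1* in the F1 diet comparison was at 0.22 without the libraries of high score, and *gstr* at -0.022 to 0.073 without 1 library. Class medians turned sign too. Over the other settings the SULT median ran from -0.22 to 0.11 between the high ARA groups. It ran from -0.29 to 0.11 between the control groups and from -0.15 to 0.21 in F0. The GST median of the interaction ran from -0.24 to 0.090. Without 1 library the SULT median reached 0.13 between the high ARA groups and 0.31 in F0. Some other class medians turned as well. The SULT median of the F1 diet comparison stayed negative, at -0.32 to -0.12. Low counts limit *gstp1.1*, *gsto1*, *ugt5a2* and the *ugt1b* genes, and shared exons limit 22 members.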
